A study of Mus musculus with 12 samples.

Results

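The adrenergic receptor genes described here are Adra1a, Adra1b, Adra1d, Adrb1 and Adrb3, 5 of the 46983 genes counted in the left ventricle (LV) of the mouse heart. They were looked up by symbol, and all 5 were found. The set was chosen by gene family, but with results of these samples known. Adra1a is on the study's list of genes lower in the diabetes-exposed Hif1a+/- LV, which was drawn from the same 12 samples, so the members' values are given as a description and nothing is read from tests of their differences. Of the 5 members, 4 passed the filter on low counts, and Adrb3 did not.

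RNA was sequenced from the LV of 12 FVB offspring aged 12 weeks, as 3′-seq libraries that read the end of each transcript, with 3 samples in each of 4 groups. The groups were Wt from non-diabetic pregnancy, Wt from diabetic pregnancy, Hif1a+/- from non-diabetic pregnancy and Hif1a+/- from diabetic pregnancy. Wt dams were made diabetic with streptozotocin, which destroys pancreatic beta cells, and were mated with Hif1a+/- males, so every Hif1a+/- animal carried 1 global null allele from its father and all offspring, Wt included, had a Wt mother. The 3 animals of a group came from different litters, and the animal number in each title is used here as the name of the replicate.

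Adrenergic receptors are the cell surface receptors for noradrenaline from sympathetic nerves and adrenaline from the adrenal gland. In the heart muscle cell the beta-1 receptor couples to the stimulatory G protein Gs, which raises cAMP and activates protein kinase A (PKA), and so raises the rate and force of contraction. The alpha-1 receptors couple to Gq, which activates phospholipase C and leads to the release of IP3 and the activation of protein kinase C (PKC), and they are known for their part in cardiac growth and in the tone of blood vessels. The beta-3 receptor is best known from fat cells.

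Libraries held from 16132442 to 39812939 counts. Levels are given in the usual unit CPM, in which the counts of every sample are scaled to the same normalized library size. The 6 cardiomyocyte markers (Myh6, Tnnt2, Actn2, Ttn, Myl2 and Myom2) summed to between 56044 and 63556 CPM in every sample. Hif1a itself was at 55.7 to 71.8 CPM in Wt from non-diabetic pregnancy and 47.9 to 59.3 in diabetes-exposed Wt. It was at 78.8 to 89.4 in Hif1a+/- from non-diabetic pregnancy and 64.8 to 81.5 in diabetes-exposed Hif1a+/-. In each kind of pregnancy its count was thus higher, without overlap, in the libraries labelled Hif1a+/-. Among all genes tested, 2.55% and 4.32% were likewise higher after non-diabetic and diabetic pregnancy. The study also lists Hif1a as upregulated, for Hif1a+/- from non-diabetic pregnancy. The part of the gene deleted in the null allele is not given in the sources used here, and a count of 3′ ends outside it checks nothing about the label. Female sex is stated in the sample labels, whereas the study describes male offspring. The 4 Y-linked genes outnumbered Xist in 11 samples, the pattern of male animals, which the label does not match. In diabetes-exposed Hif1a+/- replicate 72 the order was reversed, with 26 against 3599 counts, the pattern of a female. That group was the only one with both patterns. The members' changes with diabetic pregnancy in Hif1a+/- are therefore also given without replicate 72.

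Adra1a lies on chromosome 14 at 66635251 to 66771168 on the plus strand, Adra1b on chromosome 11 at 43774606 to 43901210 on the minus strand and Adra1d on chromosome 2 at 131545850 to 131562283 on the minus strand (GRCm38). Adrb1 lies on chromosome 19 at 56722199 to 56733113 on the plus strand, and Adrb3 on chromosome 8 at 27225776 to 27250616 on the minus strand. All 5 are protein coding. The annotation places the antisense gene Gm14285 over Adra1d and the antisense gene Gm45470 over Adrb3, and the strand setting of the counting is not given in the sources used here, so reads from the overlapping partners cannot be told apart. Gm14285 had 3 counts over the 12 samples and Gm45470 was not among the genes counted.

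The promoters of 2 members were in the RefSeq table for GRCm38.p6, and they are shown because HIF-1, the factor that Hif1a encodes a subunit of, binds the core motifs ACGTG and GCGTG. Each sequence is the 250 bases before an annotated transcript start, on the strand of the gene, and capitals mark a core motif. The first is Adrb1 at chr19:56721867-56722116 on the plus strand, and the second is one of the 2 annotated starts of Adra1b, at chr11:43836490-43836739 on the minus strand.

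Adrb1: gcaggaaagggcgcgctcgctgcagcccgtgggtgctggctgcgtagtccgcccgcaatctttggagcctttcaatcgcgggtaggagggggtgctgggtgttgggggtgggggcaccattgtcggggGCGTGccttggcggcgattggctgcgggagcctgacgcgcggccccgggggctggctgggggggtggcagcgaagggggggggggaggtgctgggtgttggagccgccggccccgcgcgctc

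Adra1b: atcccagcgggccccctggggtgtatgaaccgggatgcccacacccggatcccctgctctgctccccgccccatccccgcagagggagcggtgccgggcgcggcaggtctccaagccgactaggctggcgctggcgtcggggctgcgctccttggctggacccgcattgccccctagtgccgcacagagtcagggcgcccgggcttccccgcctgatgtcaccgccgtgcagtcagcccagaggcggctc

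The Adrb1 promoter had 1 match, GCGTG on the strand of the gene, which begins 122 bases before the transcript start. No match was found in the Adra1b promoter shown, nor in the window before its other start at chr11:43901238-43901487. Both strands were searched, where an ACGTG match on one strand can overlap an ACGTG match on the other. Over 32851 promoters of the same length, 16.6% held ACGTG, 28.2% held GCGTG and 38.6% held at least one of them. The Adrb1 window was 74% G and C and the Adra1b window shown 72.8%, against a median of 52.4% over all promoters, while the other Adra1b window was at 41.6%. A match is a run of letters and not a bound site.

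Adra1b gave the most counts of the 5 receptor genes in the LV and Adrb3 was close to absent. Over the 12 samples the mean level was 48.2 CPM ± 6.68 (SD) for Adra1b, 22.8 ± 3.36 for Adrb1, 22.7 ± 5.10 for Adra1a, 3.27 ± 0.657 for Adra1d and 0.0705 ± 0.0861 for Adrb3. Over all 12 samples the ranges of Adrb1, 17.4 to 27.1 CPM, and Adra1a, 14.6 to 32.2 CPM, overlapped, so the order of this pair by CPM was not set beyond their spread. By pregnancy the order of their means turned, with 26.9 CPM for Adra1a and 23.8 for Adrb1 after non-diabetic pregnancy and 18.6 and 21.8 after diabetic pregnancy. The lowest Adra1b sample, at 37.3 CPM, was above the highest Adra1a sample, and the highest Adra1d sample, at 4.90 CPM, was below the lowest Adra1a sample. Per kilobase of exon the mean levels were 14.3 CPM for Adra1b, 6.73 for Adrb1, 2.61 for Adra1a, 1.72 for Adra1d and 0.0209 for Adrb3, in the same order. Adra1a has 8728 bases of exon, in 6 annotated transcripts with 6 different ends, and the other 4 genes have between 1899 and 3382. A 3′-seq count does not grow with length, so both scales are given. Among the 14706 genes tested, Adra1b was more abundant than 75.4%, Adrb1 than 57.4%, Adra1a than 57.3% and Adra1d than 24.6%.

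**Figure D1:**
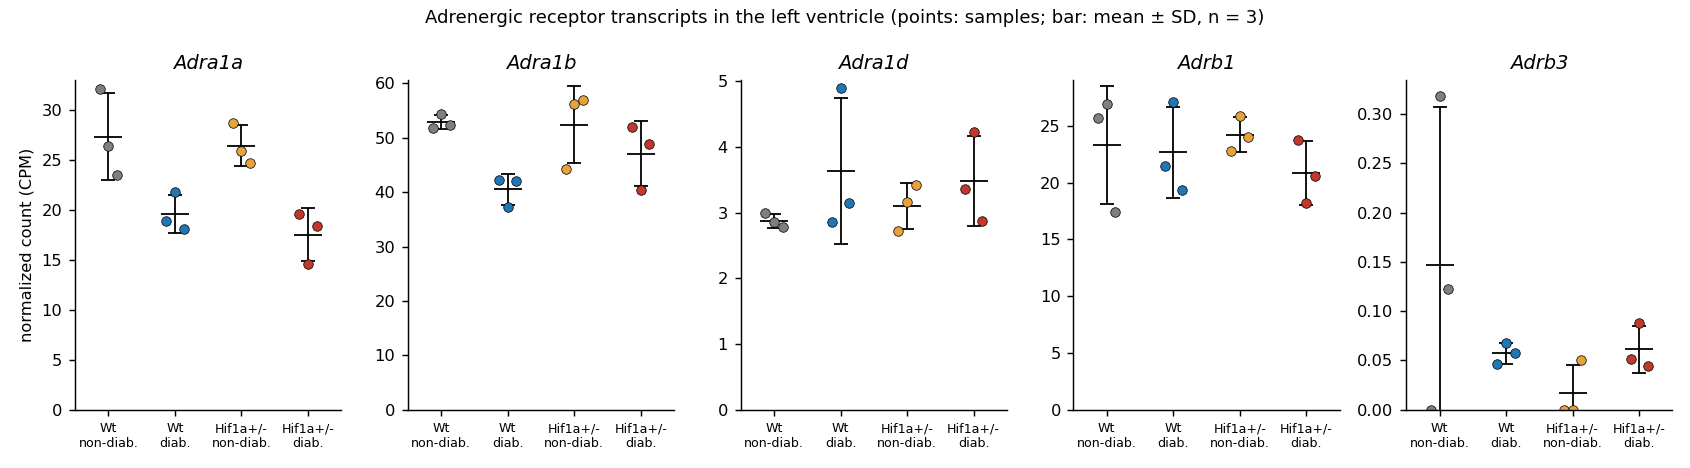
Normalized count (CPM) of each receptor gene in the 12 LV samples by group, with 1 point per sample and the mean ± SD of the 3 samples as a bar, each panel on its own axis from 0 and the Adrb3 bars cut off at 0. The 6 diabetes-exposed samples lie between 14.6 and 21.8 CPM for Adra1a, below the 6 others at 23.5 to 32.2 CPM, while the groups overlap for Adra1d and Adrb1.

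Adra1a, which encodes the alpha-1A receptor, was lower in each of the 6 diabetes-exposed samples than in any of the 6 others. In Wt it was at 32.2, 26.4 and 23.5 CPM after non-diabetic pregnancy and at 18.9, 21.8 and 18.1 CPM after diabetic pregnancy. In Hif1a+/- the values were 28.7, 25.9 and 24.7 CPM after non-diabetic pregnancy and 19.6, 14.6 and 18.4 CPM after diabetic pregnancy. In each genotype the 3 diabetes-exposed samples were below the 3 others, as they were in 3.4% of all genes tested in Wt and 13.2% in Hif1a+/-. The mean was 18.6 CPM ± 2.36 (SD, n = 6) after diabetic and 26.9 ± 3.12 (n = 6) after non-diabetic pregnancy. Of the 14706 genes tested, 49 (0.333%) had all 6 diabetes-exposed samples below the 6 others, and since Adra1a was chosen with this difference known, nothing is read from its place among them.

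The fitted log2 fold change of Adra1a with diabetic pregnancy was -0.48 (SE 0.14) in Wt and -0.59 (SE 0.14) in Hif1a+/-, that is 0.719 and 0.664 of the level after non-diabetic pregnancy. Diabetes-exposed Hif1a+/- against Wt from non-diabetic pregnancy gave -0.64 (SE 0.14), in a comparison that shares its samples with those just given. The 2 genotypes differed in this change by -0.12 (SE 0.19), which is less than its standard error, and by 0.0050 (SE 0.18) without replicate 72. Hif1a+/- against Wt gave -0.04 (SE 0.14) after non-diabetic pregnancy, where the samples of the genotypes overlapped, and -0.16 (SE 0.14) after diabetic pregnancy, where it was -0.04 without replicate 72. Without that sample, the lowest of the 12, the change with diabetic pregnancy in Hif1a+/- was -0.47, the change over both genotypes was -0.47, against -0.53 with it, and diabetes-exposed Hif1a+/- against unexposed Wt gave -0.52. Without Wt replicate 25, the highest, the change in Wt was -0.34.

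Adra1b encodes the alpha-1B receptor. In Wt it was at 51.8, 54.3 and 52.4 CPM after non-diabetic pregnancy and at 42.2, 37.3 and 42.0 CPM after diabetic pregnancy, and these did not overlap. In 500 of the 14706 genes (3.4%) the 3 diabetes-exposed Wt samples were likewise all below the 3 others. In Hif1a+/- Adra1b was at 44.2, 56.2 and 56.9 CPM after non-diabetic pregnancy and at 51.9, 40.4 and 48.9 CPM after diabetic pregnancy, with overlap. The log2 fold change was -0.38 (SE 0.12) in Wt and -0.15 (SE 0.11) in Hif1a+/-, where it was -0.05 without replicate 72. The genotypes differed in this change by 0.23 (SE 0.16), or 0.34 (SE 0.16) without replicate 72, and over both genotypes it was -0.27 (SE 0.081), or -0.21 (SE 0.078) without it. Hif1a+/- against Wt after diabetic pregnancy gave 0.22 (SE 0.11), or 0.32 (SE 0.12) without it. The genotypes overlapped there only through replicate 72. With all samples kept, 4.3% of all genes tested had the 3 Hif1a+/- samples above the 3 Wt samples after diabetic pregnancy. That share was not computed without replicate 72, and nothing is read from this for Adra1b.

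Adra1d, which encodes the alpha-1D receptor of vascular smooth muscle, was the least abundant alpha-1 gene, at 48 to 144 counts per sample. Its levels in Wt were 2.99, 2.86 and 2.78 CPM after non-diabetic pregnancy and 2.86, 4.90 and 3.14 CPM after diabetic pregnancy. In Hif1a+/- they were 2.73, 3.15 and 3.42 CPM after non-diabetic pregnancy and 3.36, 4.22 and 2.87 CPM after diabetic pregnancy. The groups overlapped in each genotype, and 1 sample stood above the rest in each diabetes-exposed group, replicate 7 in Wt and replicate 72 in Hif1a+/-. The log2 fold change was 0.35 (SE 0.22) in Wt and 0.17 (SE 0.22) in Hif1a+/-. Leaving out replicate 7 brought the first to 0.06, and leaving out replicate 72 brought the second to 0.03 and the difference between the genotypes in this change from -0.18 to -0.33.

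Markers of the vessel wall were looked at beside Adra1d. The 4 smooth muscle markers (Acta2, Myh11, Tagln and Cnn1) summed to 180 to 274 CPM in Wt and 190 to 277 CPM in Hif1a+/- after non-diabetic pregnancy. After diabetic pregnancy they summed to 177 to 329 CPM in Wt and 195 to 271 CPM in Hif1a+/-. Myh11, the smooth muscle myosin heavy chain, was the only one of the 4 without overlap in Hif1a+/-, at 15.5 to 17.6 CPM after diabetic and 26.3 to 30.4 CPM after non-diabetic pregnancy, while Adra1d overlapped there. In bulk tissue fewer cells of a type and less RNA per cell cannot be told apart.

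Adrb1 encodes the beta-1 receptor, the main receptor for noradrenaline in the heart muscle. In Wt it was at 25.7, 26.9 and 17.4 CPM after non-diabetic pregnancy and at 21.5, 27.1 and 19.4 CPM after diabetic pregnancy. In Hif1a+/- it was at 22.7, 25.9 and 24.0 CPM and at 23.8, 18.2 and 20.6 CPM. All 4 groups overlapped. The log2 fold change with diabetic pregnancy was -0.03 (SE 0.17) in Wt and -0.21 (SE 0.17) in Hif1a+/-, where it was -0.11 without replicate 72. The change in Wt turned on single samples, between -0.21 without replicate 89 and 0.09 without replicate 42.

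Adrb3, which encodes the beta-3 receptor, had 20 counts in all and 0 to 7 in a sample. It had 0, 7 and 3 counts in Wt from non-diabetic pregnancy, 1, 2 and 1 in diabetes-exposed Wt, 0, 0 and 1 in Hif1a+/- from non-diabetic pregnancy and 2, 2 and 1 in diabetes-exposed Hif1a+/-. A count of 0 allows up to 3 counts, or 0.122 to 0.186 CPM of the library total in the 3 samples concerned, so no difference in Adrb3 was detectable at this depth. Fat cell markers were low in the same samples, with Adipoq between 0.169 and 1.09 CPM, Lep at most 0.113 CPM and Ucp1, the defining gene of brown fat, at most 0.0514 CPM. Cidea, the other brown fat marker, was at 17.7 to 27.1 CPM, and its group ranges overlapped.

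The 3 alpha-1 genes together gave 83.1 CPM ± 4.16 (SD, n = 3) in Wt and 82.0 ± 5.47 in Hif1a+/- after non-diabetic pregnancy. After diabetic pregnancy they gave 63.7 ± 0.387 in Wt and 68.1 ± 8.03 in Hif1a+/-. In each genotype the diabetes-exposed samples were below the others, at 63.3 to 64.0 against 78.7 to 87.0 CPM in Wt and at 59.2 to 74.9 against 75.7 to 85.2 CPM in Hif1a+/-, where the lowest was 70.2 CPM without replicate 72. Among all single genes tested, 3.4% were likewise apart in Wt and 13.2% in Hif1a+/-. The sum is made of the same Adra1a and Adra1b counts as above and adds no independent support.

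Ratios of counts within a sample do not depend on how the libraries are scaled, and they show how the receptor genes stood to each other. The ratio of Adra1a to Adrb1 counts was 1.25, 0.981 and 1.36 in Wt and 1.26, 1.00 and 1.03 in Hif1a+/- after non-diabetic pregnancy. After diabetic pregnancy it was 0.880, 0.804 and 0.935 in Wt and 0.825, 0.800 and 0.895 in Hif1a+/-. Adrb1 thus outnumbered Adra1a in each of the 6 diabetes-exposed samples, and in 1 of the 6 others. The mean ratio was 1.20 ± 0.193 and 1.10 ± 0.144 (SD, n = 3) in Wt and Hif1a+/- after non-diabetic pregnancy, and 0.873 ± 0.0658 and 0.840 ± 0.0493 after diabetic pregnancy. This ratio uses the same Adra1a counts as the comparison above and adds no independent support to it.

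**Figure D2:**
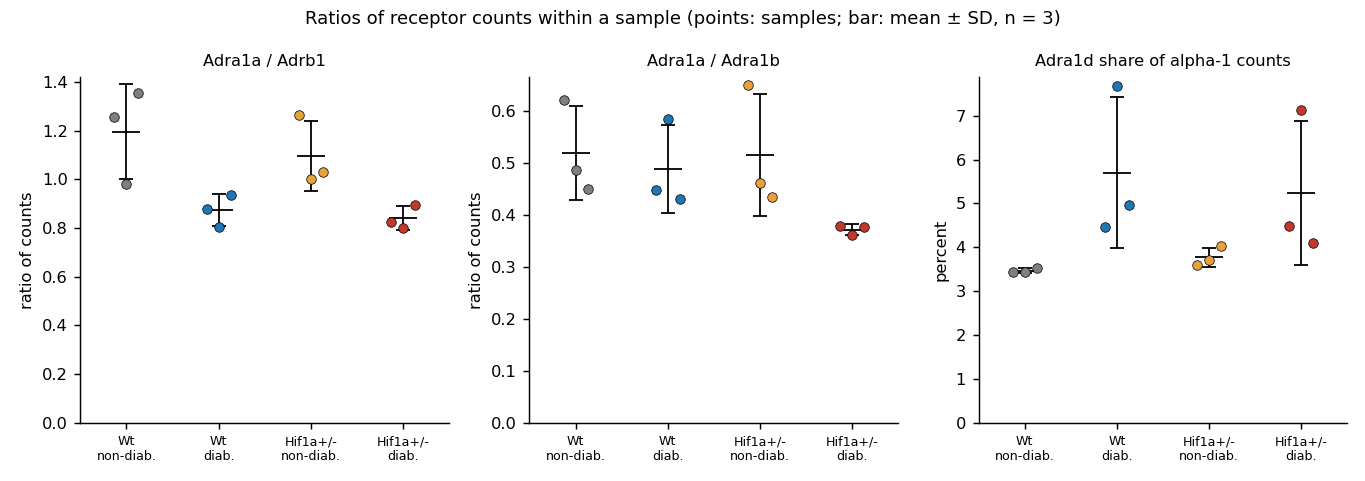
Ratio of Adra1a to Adrb1 counts, ratio of Adra1a to Adra1b counts and the percentage of alpha-1 counts that fell on Adra1d in each sample, by group, with points for samples and bars for the mean ± SD of 3 samples on axes from 0. The ratio of Adra1a to Adra1b is lowest in the 3 diabetes-exposed Hif1a+/- samples, at 0.360 to 0.378, and the other 9 samples start at 0.431.

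The balance within the alpha-1 genes followed another pattern. The ratio of Adra1a to Adra1b was 0.519 ± 0.0905 in Wt and 0.515 ± 0.118 in Hif1a+/- after non-diabetic pregnancy, 0.488 ± 0.0845 in diabetes-exposed Wt and 0.372 ± 0.00995 in diabetes-exposed Hif1a+/- (SD, n = 3). The 3 diabetes-exposed Hif1a+/- samples were below the 9 others. Without replicate 72 the remaining pair were at 0.378 and 0.377. Adra1a took 24.6% to 26.2% of the alpha-1 counts in these samples and 28.6% to 38.0% in the others. In replicate 66 the share was 26.2%, with a 95% Wilson interval of 24.6% to 27.8%, and in Wt replicate 80, the nearest of the other samples, it was 28.6%, with an interval of 26.0% to 31.3%. These intervals, which cover counting error only, overlap. Adra1d took 3.43% to 4.02% of the alpha-1 counts in the 6 samples from non-diabetic pregnancy and 4.09% to 7.67% in the 6 diabetes-exposed samples. The nearest samples on the 2 sides were again within counting error, with intervals of 3.18% to 5.06% in Hif1a+/- replicate 44 and 3.22% to 5.18% in Hif1a+/- replicate 77. The ratio and the shares use the same counts as the comparisons above and add no independent support to them. How often other pairs of genes are apart in this way was not computed, and nothing is read from it here.

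**Figure D3:**
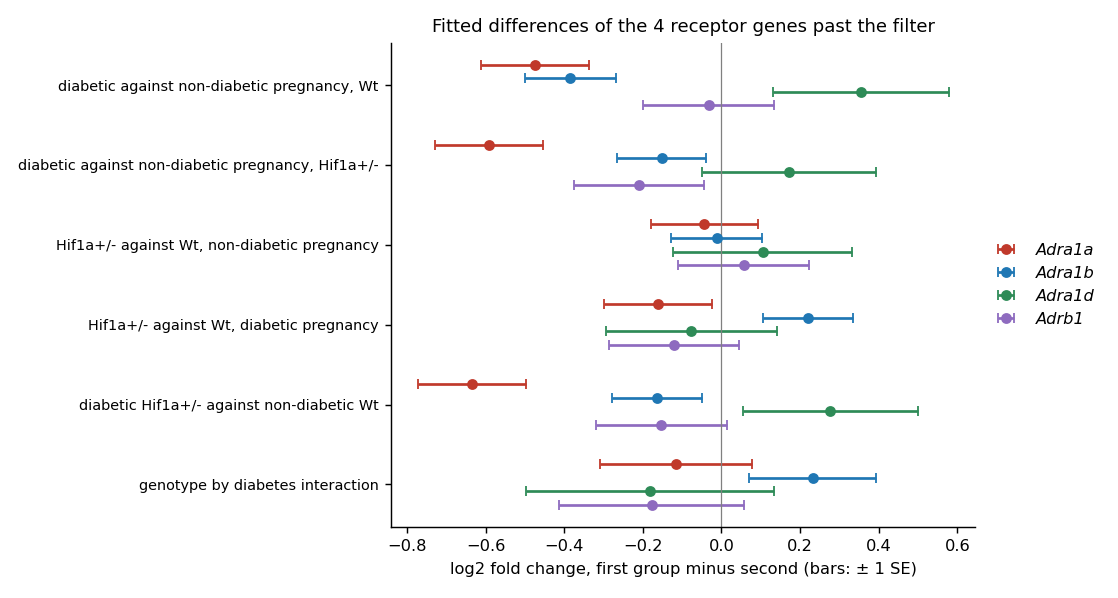
Log2 fold change of the 4 receptor genes past the filter in 6 comparisons, first group minus second on the x axis, with bars of ± 1 SE from the edgeR fit of the 12 samples. Adra1a stands at -0.48, -0.59 and -0.64 in the 3 comparisons of diabetes-exposed with unexposed groups, and the values for Hif1a+/- against Wt after non-diabetic pregnancy lie near 0 for all 4 genes.

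No member passed an adjusted p of 0.1 in edgeR's quasi-likelihood test in any of the 7 comparisons, and neither did any of the 14706 genes (0%). At an unadjusted p under 0.05 there were 409 genes for diabetic against non-diabetic pregnancy in Wt, 1764 in Hif1a+/- and 1660 over both genotypes. DESeq2, the tool of the study, called 1 member in 3 comparisons, which was Adra1a each time. These were diabetic against non-diabetic pregnancy in Hif1a+/-, where 1.44% of the genes with an adjusted p were called, diabetes-exposed Hif1a+/- against unexposed Wt, with 0.453%, and diabetic against non-diabetic pregnancy over both genotypes, with 1.46%. It called no member for diabetic pregnancy in Wt (0.0148% of genes), for genotype after non-diabetic pregnancy (0.00369%) or after diabetic pregnancy (0.155%), or for the interaction (0%). These comparisons share samples, and nothing is read from the call of Adra1a.

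The genes that act around the receptors were taken from 7 lists of adrenergic signalling, with 75 genes in all. Of these, 74 were found and 71 passed the filter. None of the 71 passed the test by edgeR or by DESeq2 in any of the 7 comparisons. At an unadjusted p under 0.05 there were 2 of the 71 (2.82%) in Wt and 8 (11.3%) in Hif1a+/- for diabetic against non-diabetic pregnancy, against 2.78% and 12.0% of all genes tested, so these counts were at the background. In Wt 49 of the 71 genes (69.0%) were below 0 in that comparison, against 48.4% of all genes tested, and their median log2 fold change was -0.056, against 0.0056 for all genes. In Hif1a+/- 43 of the 71 (60.6%) were below 0, against 51.0% of all genes, with a median of -0.060 against -0.0059. Without replicate 72 the count in Hif1a+/- was 42, with a median of -0.049 against -0.0052.

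**Figure D4:**
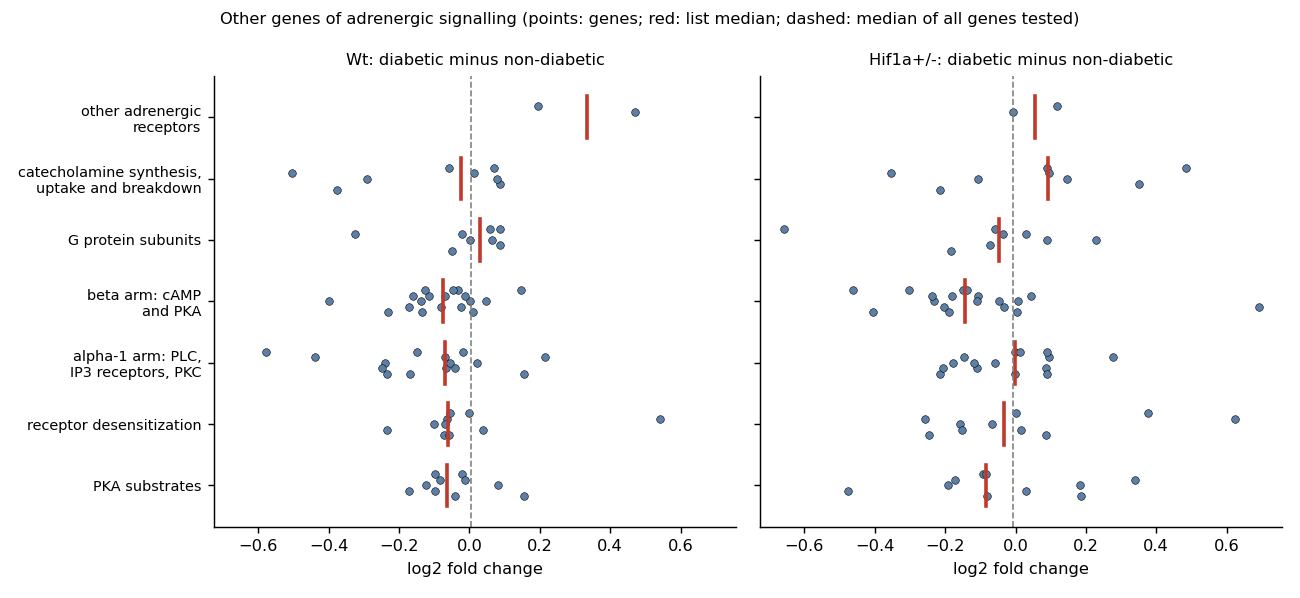
Log2 fold change of diabetic against non-diabetic pregnancy for the 71 other genes of adrenergic signalling in Wt and in Hif1a+/-, with 1 point per gene, the list median as a red line and the median of all genes tested as a dashed line. Most genes lie close to the dashed line, and the beta arm has a median of -0.075 in Wt and -0.14 in Hif1a+/-.

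The other adrenergic receptors measured, the alpha-2 receptors that restrain noradrenaline release, were scarce in the LV. Adra2b was at 0.791 to 1.20 CPM and Adra2c at 0.316 to 0.507 CPM as group means, and Adra2a, with 0 to 2 counts, did not pass the filter. Among the 8 tested genes of catecholamine synthesis, uptake and breakdown, 4 were above 0 in Wt and 5 in Hif1a+/-. Slc22a3, which encodes an extraneuronal noradrenaline transporter, was at 16.7 CPM ± 2.42 in Wt and 16.4 ± 0.175 in Hif1a+/- after non-diabetic pregnancy, and at 12.9 ± 1.57 and 14.2 ± 2.31 after diabetic pregnancy (SD, n = 3). Dbh, which encodes the enzyme that makes noradrenaline, was at 5.67 CPM ± 1.04 and 7.14 ± 1.38 after non-diabetic and 4.09 ± 1.60 and 5.57 ± 1.53 after diabetic pregnancy in Wt and Hif1a+/-. Its log2 fold change was -0.51 (SE 0.28) in Wt and -0.35 (SE 0.27) in Hif1a+/-, with overlap in both. Th, the first enzyme of the same route and a marker of sympathetic nerve, had 0 to 2 counts per sample.

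The G protein subunits and the beta arm came next. Of 8 G protein genes, 3 were below 0 in Wt and 5 in Hif1a+/-. Gnai1, an inhibitory alpha subunit, had a log2 fold change of -0.33 (SE 0.16) in Wt and -0.04 (SE 0.16) in Hif1a+/-, and Gnb2, a beta subunit, had 0.07 (SE 0.094) and 0.23 (SE 0.094). Gnas, which encodes the alpha subunit of Gs and is named after its values were seen, had the largest value of the list in Hif1a+/-, at -0.66 (SE 0.38) with an adjusted p by edgeR of 0.488, and 0.06 (SE 0.38) in Wt. Its level was 7.21 CPM ± 1.91 and 4.55 ± 0.199 in Hif1a+/- after non-diabetic and diabetic pregnancy, and the annotated gene Gm20721 overlaps its end on the other strand, so its count is uncertain. Of the 18 genes that make, break down or answer to cAMP, 14 were below 0 in Wt and 14 in Hif1a+/-. Prkacb, a catalytic subunit of PKA, was at 85.3 CPM ± 4.67 and 82.4 ± 2.92 in Wt and Hif1a+/- after non-diabetic pregnancy and at 78.2 ± 2.47 and 74.9 ± 0.534 after diabetic pregnancy. Prkar2b, a regulatory subunit, differed from its list, with a log2 fold change of 0.69 (SE 0.24) in Hif1a+/- and -0.03 (SE 0.24) in Wt. Its level in Hif1a+/- was 1.497 CPM ± 0.229 after non-diabetic and 2.45 ± 0.364 after diabetic pregnancy, and the adjusted p by edgeR was 0.328. Among all genes tested, 11.2% had the 3 diabetes-exposed Hif1a+/- samples above the 3 others, as Prkar2b and Gnb2 did, and 13.2% had them below, as Prkacb and Gnas did.

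Downstream of the alpha-1 receptors, 12 of 15 genes were below 0 in Wt and 9 in Hif1a+/-, with medians of -0.070 and -0.0028. Itpr1, an IP3 receptor that releases calcium, had log2 fold changes of -0.17 (SE 0.11) and -0.22 (SE 0.11), and Prkcd, a PKC isoform, had -0.25 (SE 0.10) and 0.09 (SE 0.10). Of 10 genes that switch receptors off, 8 were below 0 in Wt and 5 in Hif1a+/-. Rgs5, a regulator of G protein signalling known from pericytes, was at 651 CPM ± 50.1 and 668 ± 29.2 in Wt and Hif1a+/- after non-diabetic pregnancy and at 625 ± 48.6 and 564 ± 55.4 after diabetic pregnancy. Rgs4, of the same family, had log2 fold changes of -0.24 (SE 0.15) in Wt and -0.15 (SE 0.15) in Hif1a+/-. Rgs2, a member of the family that acts on Gq and is also named after its values were seen, had the largest values of the list and in the other direction, at 0.54 (SE 0.34) in Wt and 0.62 (SE 0.34) in Hif1a+/-, with adjusted p values by edgeR of 1.00 and 0.466. Its samples overlapped in both genotypes, at 22.5 to 40.6 and 32.3 to 81.1 CPM in Wt and 23.1 to 37.7 and 35.0 to 57.7 CPM in Hif1a+/- after non-diabetic and diabetic pregnancy. Among 10 PKA substrates of the heart muscle cell, 8 were below 0 in Wt and 6 in Hif1a+/-. Cacnb2, a subunit of the L-type calcium channel, was at 117 CPM ± 13.2 and 84.0 ± 7.45 in Hif1a+/- after non-diabetic and diabetic pregnancy, with a log2 fold change of -0.48 (SE 0.20) and an adjusted p by edgeR of 0.385. Kcnq1, a potassium channel subunit, was at 48.6 CPM ± 3.44 and 61.5 ± 7.98, with a log2 fold change of 0.34 (SE 0.13) and an adjusted p of 0.368. In Wt these were -0.10 (SE 0.20) and -0.01 (SE 0.13). Of the pathway genes with a Hif1a+/- change given here, 3 moved by more than 1.5 times without replicate 72, which were Dbh to -0.17, Slc22a3 from -0.22 to -0.34 and Gnai1 to 0.07.

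The genes whose levels followed each receptor gene most closely over the 12 samples are given as a description. Group means were left in, so a difference between groups that a gene shares with a receptor gene raises its correlation. The genes named have the highest of 14706 correlations, and the points share their library and depth. For Adra1a they were Dhx33, an RNA helicase, with a Pearson r of 0.92 and a Spearman rho of 0.87, Ankrd28 with 0.91 and 0.89, and Pde7b, a phosphodiesterase that breaks down cAMP, with 0.90 and 0.86. For Adra1b they were Gja1, which encodes connexin 43, with 0.86 and 0.85, Katnbl1 with 0.83 and 0.88, and Tspan18 with 0.81 and 0.85. Adra1d went with Layn at 0.89 and 0.76, Upp1 at 0.88 and 0.87 and Syt12 at 0.87 and 0.66. Adrb1 had the closest neighbours, with Micall1 at 0.95 and 0.97, Ubap2l at 0.95 and 0.93 and Glg1 at 0.94 and 0.90. Ankrd28, like Adra1a, was lower in every diabetes-exposed sample, at 29.5 to 37.0 CPM, than in any other, at 38.9 to 45.6 CPM. Dhx33 and Pde7b overlapped. Between members, Pearson's r was 0.60 for Adra1a with Adrb1, 0.53 for Adra1a with Adra1b, 0.25 for Adra1b with Adrb1 and 0.17 for Adra1d with Adrb1. It was -0.39 for Adra1a with Adra1d and -0.53 for Adra1b with Adra1d.

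Markers of other cells were read in the samples in which Adra1a was low. The 4 macrophage markers (Cd68, Csf1r, Adgre1 and Mrc1) summed to 126 to 185 CPM in diabetes-exposed Hif1a+/- and 65.2 to 110 CPM in unexposed Hif1a+/-, and each of the 4 was higher there without overlap, with sums of 133 to 185 CPM without replicate 72. In Wt the sums overlapped, at 84.6 to 141 CPM after diabetic and 83.9 to 125 CPM after non-diabetic pregnancy, while Adra1a did not. The cardiomyocyte markers summed to 56837 to 61480 CPM in diabetes-exposed Hif1a+/- and 58271 to 61023 CPM in unexposed Hif1a+/-. Myh6 is the largest part of that sum, and 2 of the 6 markers were lower without overlap in diabetes-exposed Hif1a+/-, Ttn at 3968 to 4998 against 5119 to 5641 CPM and Myom2 at 755 to 1337 against 1451 to 1684 CPM. Their part in the level of Adra1a was not tested. Each sample was then scaled to the mean log2 CPM of its 6 cardiomyocyte markers, which gives each marker equal weight. With this scaling, chosen after the data had been seen, the log2 fold change of Adra1a was -0.48 in Wt and -0.48 in Hif1a+/-. The part of macrophages in the level of Adra1a was not tested. The sums of the endothelial markers (Pecam1, Cdh5, Kdr and Tie1) overlapped in both genotypes, at 680 to 986 CPM over all samples, while Cdh5 alone was at 186 to 225 CPM in diabetes-exposed and 241 to 257 CPM in unexposed Hif1a+/-. The fibroblast markers (Col1a1, Dcn, Pdgfra and Tcf21) summed to 900 to 1125 CPM in diabetes-exposed Hif1a+/- and 870 to 898 CPM in unexposed Hif1a+/-. Of the 4, only Tcf21 was without overlap there, and Dcn, most of the sum, overlapped at 671 to 877 against 662 to 711 CPM. In Wt the sums overlapped, at 858 to 1249 CPM after diabetic and 809 to 1056 CPM after non-diabetic pregnancy. The 4 atrial markers (Nppa, Myl4, Myl7 and Sln) summed to 25.2 to 50.7 CPM in diabetes-exposed Wt and 52.1 to 58.1 CPM in unexposed Wt, the groups in which Adra1a and Adra1b did not overlap, and to 33.4 to 69.8 and 46.6 to 70.8 CPM in Hif1a+/-. Nppa made up most of the sum. In Wt it was the only 1 of the 4 without overlap, at 21.8 to 44.7 against 45.1 to 54.6 CPM, while Myl4, Myl7 and Sln overlapped. The part of the atrial markers in the levels of the 2 receptor genes was not tested. The sums of the other lists overlapped between diabetes-exposed and unexposed samples in both genotypes, with 5.24 to 9.15 CPM for Schwann cells, 2.83 to 8.28 CPM for sympathetic nerve, 4.63 to 14.5 CPM for mesothelium and 195 to 1122 CPM for skeletal muscle. Acta1 made up nearly all of the skeletal muscle sum, and Mylpf, Myh1 and Myh4 were each at most 1.23 CPM. Dbh made up nearly all of the sympathetic nerve sum. Without replicate 72 the Schwann cell sums no longer overlapped in Hif1a+/-, at 5.24 to 5.48 against 6.18 to 6.65 CPM in unexposed samples. Nor did the mesothelium sums, at 7.46 to 7.53 against 8.06 to 12.1 CPM.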

How the data were processed

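The LV of 12 offspring was profiled by 3′-seq, with 3 samples in each of the 4 groups of genotype and pregnancy given by the labels. The authors trimmed the reads, discarded those of ribosomal or mitochondrial origin, aligned what was left by STAR (version 2.5.2b) to GRCm38 with the GENCODE M8 annotation, counted them per gene with htseq-count and tested them with DESeq2. The deposited counts used here are whole numbers of reads per gene without normalization, and between 12.4% and 17.0% of the reads were aligned to several places. The normalized counts, each a count divided by 1 factor per sample, were not used. Of 46983 gene identifiers, 46488 had a symbol in the GENCODE M21 annotation of GRCm38.

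Differences were computed with edgeR's quasi-likelihood fit (edgeR 4.0.16, R 4.3.3) of all 12 samples, with TMM library scaling, edgeR's own filter for low counts (14706 of 27093 genes kept), 1 mean per group and Benjamini-Hochberg adjustment over all genes, at the study's threshold of 0.1. With 8 residual degrees of freedom and a biological coefficient of variation of 13.7%, the spread between animals mostly set the precision for genes with many counts. For genes with few counts, such as Adra1d at 48 to 144 per sample, counting error added to it. The scripts were tested on simulated data. Alternatives were DESeq2 (1.42.0), its size factors in edgeR, no filter, at least 10 counts per gene in all samples, a stricter threshold (0.05), a fit of only the groups compared, leaving out each sample in turn, and, chosen after seeing the data, scaling to the cardiomyocyte markers.

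The members and the lists of pathway and marker genes were chosen with earlier results of these data known. The genes named are the members, the 2 of each pathway list with the smallest p when the 4 groups were tested together, pathway genes past the threshold, the 3 genes most like each member by Pearson's r of log2(CPM + 1), and markers whose list differs in the same samples as a member. The members do not cover every adrenergic receptor gene, and Pde2a and any receptor gene left out were not analysed here.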

Additional observations from a re-analysis of the deposited data

How the results depend on the processing

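The log2 fold changes of Adra1a, Adra1b and Adrb1 moved by less than 1 SD between samples in 124 of 124 alternatives each, and those of Adra1d in 121 of 124. The other 3 for Adra1d came from leaving out Wt diabetic replicate 7, the sample with the highest level: the change in Wt was then 0.06, the difference between genotypes 0.12 in place of -0.18, and Hif1a+/- against Wt after diabetic pregnancy 0.22 in place of -0.08. The bound of 1 SD between samples is wide, because leaving out 1 of 3 samples usually moves a group mean by only part of it. Staying within it therefore says little about how firm a value is. The change of Adrb1 in Wt stayed within it, yet took the other sign in 4 of the 12 fits without 1 sample. Leaving out single samples gave -0.57 to -0.34 for Adra1a in Wt and -0.68 to -0.47 in Hif1a+/-, and the order of the 5 genes by level was the same per kilobase. With a pseudocount of 0.1, 2 of the 3 genes most like Adra1a, Adra1b and Adra1d stayed among the first 3, and 3 of 3 for Adrb1.

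The count of pathway genes past the threshold was 0 in 120 of 124 alternatives over the 7 comparisons. Without the filter on low counts edgeR called 1 for diabetic pregnancy in Wt (Rgs2), 4 in Hif1a+/- (Rgs2, Cacnb2, Pde4d and Pde4b), 1 for diabetes-exposed Hif1a+/- against unexposed Wt (Cacnb2) and 3 over both genotypes (Rgs2, Pde4b and Cacnb2). Rgs2, Pde4d and Pde4b are named for these calls, after their values were seen. Rgs2, which switches off Gq, was higher after diabetic pregnancy, by 0.54 (SE 0.15) in Wt and 0.64 (SE 0.15) in Hif1a+/- on the log2 scale, where the filtered fit gave a standard error of 0.34, and the phosphodiesterases and Cacnb2 were lower. That fit called 129, 592, 445 and 593 of 27093 genes in these comparisons, where the filtered fit called 0. It also called Adra1a in all 4 and Adra1b over both genotypes, and the cause was not tested. No paired analysis was possible. The animal numbers in the labels are shared by no samples of different groups, and the litter of each sample is not given in the sources used here. Wt and Hif1a+/- samples from the same kind of pregnancy could be littermates, which the fit did not take into account.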
